A study of Mus musculus with 7 samples.

Results

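The m6A peaks of C2C12 cells, a mouse myoblast line, were described from every row of the C2C12 peak list. The list held 5433 of the 10845 peaks in the series, and 3970 of the 6392 gene symbols, when rows were collapsed by gene symbol. It was made from 2 m6A IP libraries and 1 input library, out of 7 libraries in the series. The other 4 libraries, an IP and an input each, came from muscle of C57BL/6 mice with METTL3 knockout in muscle stem cells (Pax7CreERT2, METTL3 flox/flox, so that other cells of the muscle kept the gene) and of control mice, at day 2 after cardiotoxin (CTX) injury that followed tamoxifen. Both C2C12 IP libraries carried the genotype label Knockout and the C2C12 input the label Normal, while the study's text described these libraries only as myoblasts. They are therefore called C2C12 here, and no genotype was compared. The labels described growth of C2C12 cells and their differentiation in horse serum, without saying which state these libraries held. The line is an immortal clone, and nothing stated that the IP libraries came from separate cultures.

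N6-methyladenosine (m6A) is a methylated form of adenosine in mRNA. A writer complex built around METTL3 and METTL14 places it, preferentially within the sequence GGAC and related motifs, and most abundantly around stop codons, in long internal exons and in 3′UTRs. Reader proteins such as those of the YTHDF family bind the mark and affect the translation and decay of the mRNA, and the demethylases FTO and ALKBH5 remove it. In MeRIP-Seq, RNA fragments are captured with an antibody to m6A, and regions enriched over the input are called as peaks. A peak therefore marks a stretch of RNA and not the methylated base.

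Each peak was listed with its position, gene, category and distance from the transcription start site (TSS), and with no read count, enrichment or p-value. The libraries had been combined into 1 list, so no value per library, no replicate error and no depth could be given. Intervals below are 95% Wilson intervals. They cover counting error only, and peaks in a gene are not independent of each other. A gene absent from the list may have been unmethylated or too weakly expressed to give a peak, and these cannot be told apart. The listed distance ran from the TSS to the peak centre along the gene's strand, since all 1021 genes with several peaks on a chromosome gave a single TSS within 1 bp when it was read in this way. Of 5430 peaks matched to the gene annotation of GRCm38, 9.39% had their centre within the gene's GRCm38 coordinates. The submitters' notes named mm10, which is the same build, so the listed positions belong to another build and no RNA sequence was read from them. Gene lengths of GRCm38 were used to group genes by length and to place a peak along its gene. The place is the listed distance from the TSS as a percentage of the whole annotated gene length. A listed TSS can lie inside the annotated gene, and its peaks are then placed too near the start. The 3′UTR peak of Abr, for example, was placed at 76.8%.

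Sequence could be shown where the peak lay at the start of the transcript, since the TSS is found there in any build. A total of 184 peaks, in 184 genes, were centred within 100 bp of the TSS. The RefSeq promoter sequences (GRCm38.p6) held a single start for 139 of the 177 protein-coding genes among them. Genes with several starts in that source were left out. Whether the single start is the TSS of the listed transcript was not checked. Examples with GGAC, the motif of the writer complex, in the first 30 bases from the annotated start are given below. They were chosen after their values were seen, from 16 genes with such a start, and GGAC is in capitals.
Ep300: gaaggaggaGGACagcgccgaggaggaaga
Vcl: agttacgccgagggaagcccGGACtctagt
Tecr: gGGACgcacgcatagaggggggcggagccg
Crip1: cggggtccctgaaaagcgcGGACcaggcgg
Lbh: GGACccggagatcggtggagagcggagagc
Mmp14: gctgtgggagaagggagGGACcaaaggaga

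In GRCm38.p6 the Ep300 start lies at chr15:81586214-81586243 on the plus strand, the Vcl start at chr14:20929398-20929427 on the plus strand and the Tecr start at chr8:83594462-83594491 on the minus strand. The Crip1 start lies at chr12:113152012-113152041, the Lbh start at chr17:72918305-72918334 and the Mmp14 start at chr14:54431598-54431627, each on the plus strand. Ep300, a histone acetyltransferase, had a peak of 199 bp centred -1 bp from the TSS and labelled upstream. Vcl, the focal adhesion protein vinculin, had a 5′UTR peak of 204 bp centred at 14 bp. The peaks of Tecr, a reductase of fatty acid elongation, Crip1, a LIM domain protein, and Lbh, a transcriptional regulator of limb and heart, were each 199 bp long and centred at 19, 30 and 33 bp. Mmp14, a membrane-bound matrix metalloproteinase, had a peak of 244 bp centred at 55 bp.

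The share of these starts with GGAC differed from that of all genes by less than its counting error. GGAC occurred in the first 50 bases of 32 of 139 genes with a peak at the TSS (23.0%, interval 16.8 to 30.7). Of 2422 genes with any C2C12 peak and a single start, 19.7% held it, as did 19.97% of all 14731 protein-coding genes with a single start. Read on the opposite strand, as GTCC, it occurred in 19.4% of the genes with a peak at the TSS and in 18.0% of all. The first base was A in 28.8% (interval 21.9 to 36.8) of the genes with a peak at the TSS, in 26.3% of genes with any peak and in 39.4% of all. The median GC content of these bases was 66.0%, 68.0% and 60.0% in the same order. A match describes the letters in this window and not a methylated site.

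The peaks at the TSS formed a narrow class. The 100 bp after the TSS held 158 peak centres and the 100 bp before it 25, against 63 from 100 to 200 bp and 35 to 53 in each further 100 bp up to 1000 bp. Of the 184 peaks within 100 bp, 138 were labelled 5′UTR, 25 upstream and 18 coding exon. Their median length was 214 bp and the longest, in the transcription factor gene Irx3, 469 bp. A total of 82 of the 184 genes (44.6%) had another peak elsewhere. Among 283 5′UTR peaks of coding transcripts, 135 (47.7%) were centred within 100 bp of the TSS and 59 (20.8%) more than 1000 bp away.

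**Figure D1:**
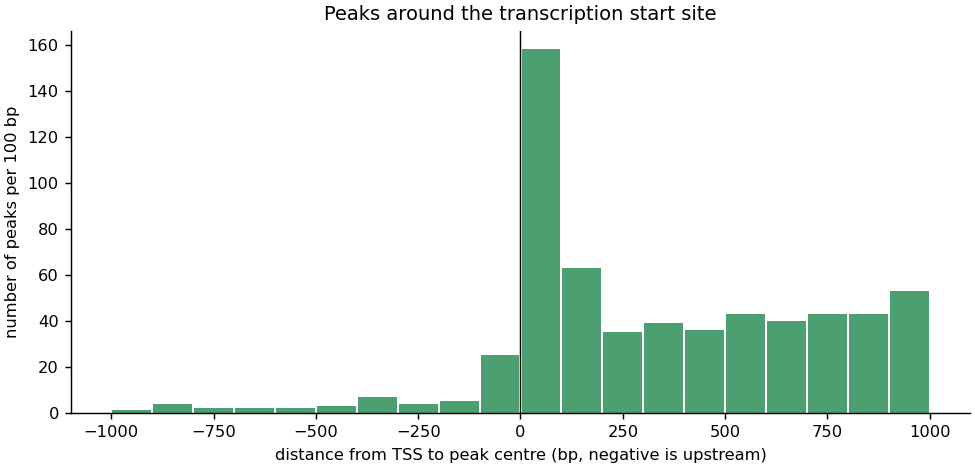
Number of C2C12 peaks (vertical axis) by the distance from the TSS to the peak centre in bp (horizontal axis, bins of 100 bp, negative values upstream, vertical line at the TSS). The bin that starts at the TSS holds 158 peaks, the next 63 and the bin just upstream 25.

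Peaks differed in length by where they lay. Coding exon peaks had a median length of 304 bp and 3′UTR peaks of 290 bp, against 239 bp for 5′UTR and 232 bp for intron peaks. Over all peaks the quartiles were 228 and 399 bp. The shortest peaks measured 199 bp, a length shared by 305 peaks (5.61%), and 36.4% were no longer than 250 bp. Peaks over 500 bp made up 17.0% of coding exon peaks, 12.8% of 3′UTR peaks, 9.78% of intron peaks and 6.43% of 5′UTR peaks. A total of 89 peaks exceeded 1000 bp, of which 49 lay in coding exons, 19 in introns and 14 in 3′UTRs. The whole list covered 1903397 bp.

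**Figure D2:**
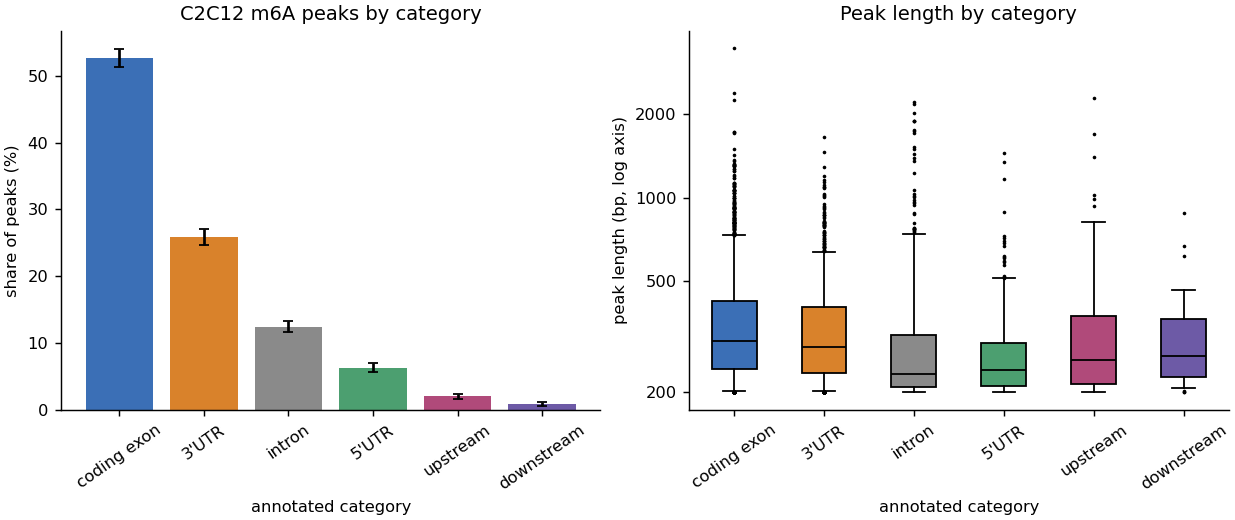
Left, share of the 5433 C2C12 peaks (%) in each annotated category, with 95% Wilson intervals as error bars. Right, peak length in bp on a log axis by category, with boxes from the lower to the upper quartile, the median as a line, whiskers from the 5th to the 95th percentile and points for peaks beyond them. Coding exon peaks are the most numerous and have the highest median, 304 bp, and intron peaks have the lowest, 232 bp.

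The longest peaks lay in a few genes. Plec encodes plectin, a giant linker of intermediate filaments to other parts of the cytoskeleton, and had the 2 longest peaks of the list, 3459 and 2392 bp, both in coding exons. The first was listed at chr15:76005274-76008733 on the minus strand, in the build of the list. Vars, a valyl-tRNA synthetase, had an upstream peak of 2295 bp, centred -2517 bp from its TSS. Rsrc1, a splicing-related protein, had an intron peak of 2212 bp. The longest 3′UTR peak, 1652 bp, was in Ptrf, which encodes the caveolar coat protein cavin-1. The longest 5′UTR peak, 1457 bp, was in Rn45s, the precursor of the ribosomal RNAs, which has no coding sequence. The longest downstream peak, 882 bp, was in Dusp5, a phosphatase of ERK.

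Along protein-coding genes, peaks gathered at the 3′ end. Of 5169 peaks that could be placed along the annotated gene, 33.2% had their centre in the final 10% of the gene length, against 9.19% in the first 10% and 4.88 to 6.91% in each step between 10 and 70%. The final step held 889 3′UTR peaks and 766 coding exon peaks, and the first step 217 5′UTR and 198 coding exon peaks. Intron peaks showed no such gathering, with 38 in the final step and 84 from 20 to 30% of the gene length. The gene length includes introns, and the exon and intron sequence present in each step was not counted. These counts are therefore not set against the sequence in which a peak of each category could lie. The median position was 93.8% of the gene length for 3′UTR peaks, 74.6% for coding exon peaks, 44.1% for intron peaks and 1.48% for 5′UTR peaks. The 3 peaks farthest from their TSS lay in Auts2, a regulator of neural development and chromatin, at 1102506 bp, in Gpc6, a glypican, at 1051571 bp, and in the polarity gene Pard3b at 901964 bp.

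**Figure D3:**
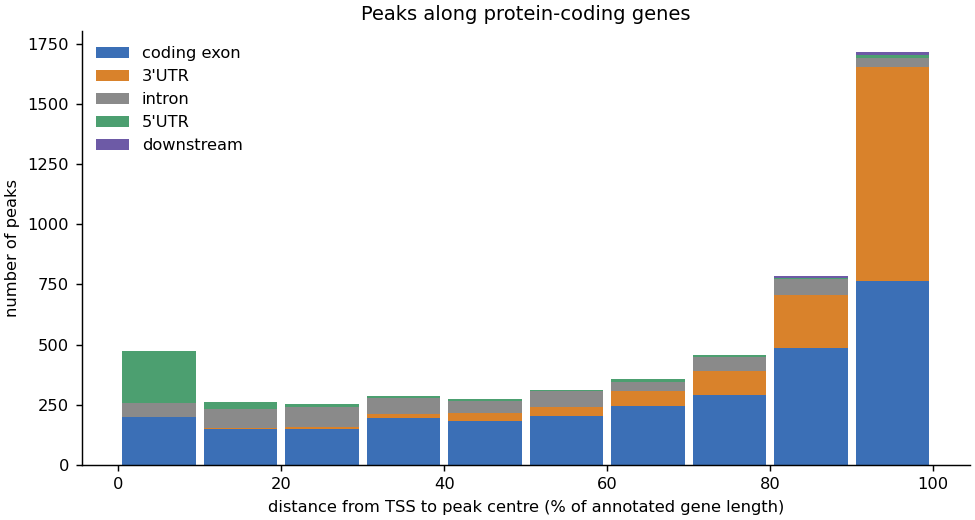
Number of C2C12 peaks (vertical axis) in protein-coding genes by the listed distance from the TSS to the peak centre (horizontal axis, % of annotated gene length, steps of 10%). Colours show the annotated category. The last step holds 1717 of 5169 peaks, mostly in 3′UTRs and coding exons.

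The share of genes with a peak and its position both differed by gene length. When protein-coding genes were ordered by length and divided into 5 classes of like size, 9.45% of the shortest genes (up to 4157 bp) had a peak, and the share was 17.7%, 19.2%, 20.5% and 21.4% in the further classes. The share of peaks in the final 10% of the gene was 5.80% in the shortest class and 45.5% in the longest. The final 10% spans fewer bp in a shorter gene, so these shares do not compare like distances from the gene end. Intron peaks made up 9.26 to 11.4% of peaks in the 4 shorter classes and 16.2% in the longest. Genes with 1 peak had a median length of 21712 bp, those with 2 peaks 23207 bp and those with 3 or more 36546.5 bp. On autosomes, the share of protein-coding genes with a peak ran from 13.4% on chromosome 14 to 23.6% on chromosome 15. It was 7.14% (interval 5.68 to 8.94) on chromosome X, and none of the 256 protein-coding genes of chromosome Y had one.

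Most genes carried a single peak. Of the 3970 genes, 2947 (74.2%) had 1 peak, 738 had 2, 205 had 3, 40 had 4, 24 had 5 and 16 had 6 or more. Genes with at least 2 peaks numbered 1023 (25.8%) and held 45.8% of the peaks. Of 1461 pairs of neighbouring peaks in a gene, the gap between them had a median of 867 bp, and 52.5% were under 1000 bp and 18.1% under 200 bp, so a division of a broad region into several peaks and separate sites cannot be told apart at this spacing. Both peaks lay in coding exons in 564 pairs (38.6%, median gap 606 bp), in a coding exon and the 3′UTR in 254, in introns in 168 and in the 3′UTR in 107. Peaks in coding exons only were found in 1878 (48.6%) of 3866 protein-coding symbols, in 3′UTRs only in 948 (24.5%) and in introns only in 321 (8.30%). Both a coding exon and the 3′UTR were marked in 258.

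The 16 genes with 6 or more peaks were marked either mainly in coding exons or mainly in introns. Kmt2d, a histone H3K4 methyltransferase, had 7 peaks between 7670 and 36795 bp from the TSS, all in coding exons except for a 3′UTR peak, each 273 to 522 bp long. Spen, a transcriptional corepressor that acts on Notch targets, also had 7, with 5 in coding exons. The 6 peaks of Plec lay between 82.6 and 99.4% of the gene length and covered 9205 bp. The 6 peaks of Map1a, a microtubule-associated protein, the 6 of Rai1, a chromatin-associated regulator, and the 6 of Cspg4, a membrane proteoglycan, were all in coding exons. Col6a3, a collagen VI chain, had 5 coding exon peaks and 1 intron peak.

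The other genes of this kind were marked mainly within introns of the listed transcript. All 18 peaks of Ahnak, a giant scaffold protein beneath the plasma membrane, were labelled intron. They ran from 235 to 1760 bp in length, lay between 12573 and 28505 bp from the TSS and covered 57.1% of a stretch of 16540 bp. The mouse gene is known to encode most of its protein in a single very large exon, and the list set these peaks against a transcript in which the stretch is an intron. Other transcripts were not used here. Myh9, the heavy chain of nonmuscle myosin IIA, had 8 peaks of 202 to 344 bp. Of these, 1 lay in the 5′UTR at 7 bp, 5 in introns between 67375 and 75212 bp and 2 in coding exons farther on. Grk5, a kinase of G protein-coupled receptors, had 7 intron peaks, and Abr 6 among its 7. Chd9, a chromatin remodeller, had 5 intron peaks among 6. Ankrd50, an ankyrin repeat protein of endosomal recycling, had 7 peaks, of which 4 were in introns. All 6 peaks of Coro2b, a coronin, and of Ctse, the protease cathepsin E, were in introns, as were the 6 of 4930578N18Rik, a long noncoding RNA. How the authors mapped reads that match several places in the genome is not given. Whether the intron peaks came from transcripts of the named genes was therefore not checked.

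**Figure D4:**
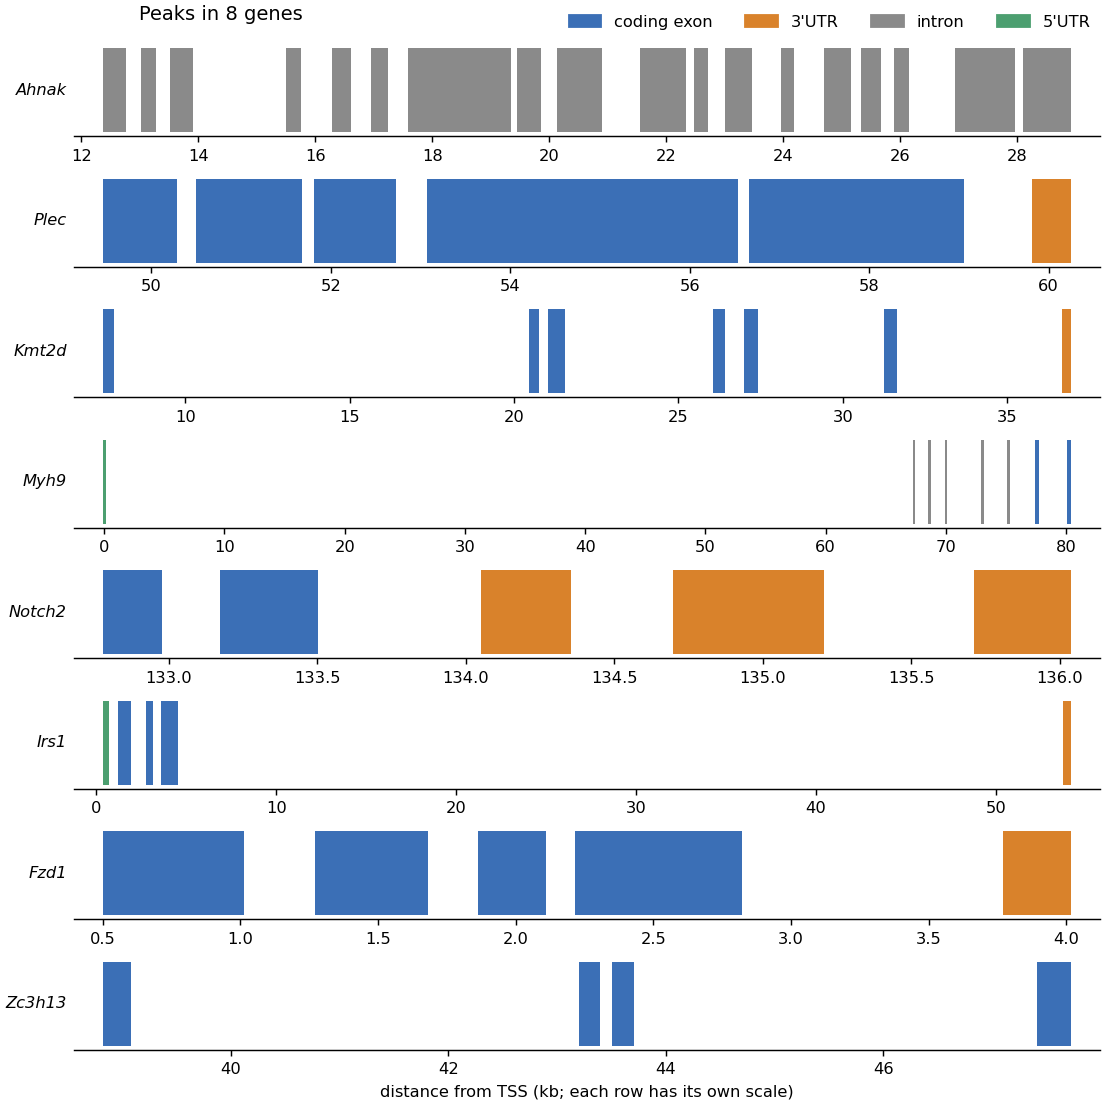
Peaks of 8 genes drawn to scale by distance from the TSS in kb (horizontal axis, a separate scale for each gene), with colours for the annotated category. The 18 Ahnak peaks are all labelled intron, the Plec peaks leave little of their stretch uncovered, the Notch2 peak centres span 2996 bp, and the Irs1 peaks lie at both ends of the gene.

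A larger share of intron peaks than of exon peaks lay in genes with several peaks of the category. The 675 intron peaks lay in 505 genes, and 348 of these genes had no peak of another category. Genes with at least 3 intron peaks numbered 35 and held 161 (23.9%) of all intron peaks. The corresponding share was 11.0% for coding exon peaks and 2.42% for 3′UTR peaks. The gap between neighbouring intron peaks had a median of 524 bp, and 65.9% of such gaps were under 1000 bp. Among 22 genes with 4 or more intron peaks, 17 had them within 10000 bp. Galnt11, a glycosyltransferase, had 5 that covered 58.0% of 8072 bp, and Gm7854, a long noncoding RNA, 5 that covered 55.5% of 8646 bp. The highest coverage was in genes noted after their values were seen. Plcd3, a phospholipase C, had 4 intron peaks that covered 81.1% of 4472 bp, and Ppat, an enzyme of purine synthesis, had 4 that covered 79.3% of 5504 bp. The transcript of origin was not checked for these stretches either.

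Noncoding transcripts were also present. Of the peaks, 188 in 140 genes were assigned to noncoding RefSeq transcripts, some of them noncoding forms of protein-coding genes such as Fth1 and Rreb1. Intron peaks made up 30.3% of these, against 11.8% of the peaks of coding transcripts. The annotation counted 53 long noncoding RNAs, 32 transcribed pseudogenes and 8 microRNA genes in the list. The noncoding genes named here were chosen after their values were seen. H19, an imprinted noncoding RNA that is abundant in myoblasts, had 2 peaks under its own symbol, which covered 401 bp. The microRNA gene Mir675 had 2 peaks labelled upstream, which covered 819 bp. Whether the Mir675 peaks lie on the H19 transcript was not checked. Malat1 and Neat1, nuclear noncoding RNAs, had 1 peak each, of 570 and 418 bp, and Tug1 had 2 peaks that covered 679 bp. Tsix had 4 peaks. It overlaps Xist on the opposite strand, so the gene of origin of these peaks is uncertain.

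Of 9 peaks assigned to microRNA genes, 2 covered the start of the hairpin. The peak of Mir671, labelled 5′UTR, was 427 bp long and centred 42 bp from that start. The peak of Mir5114, labelled downstream, was 265 bp long and centred at 76 bp. Their mature sequences from RefSeq (GRCm38.p6) are shown with the seed, bases 2 to 8, in capitals, since they lie in or beside the marked RNA.
mmu-miR-671-5p: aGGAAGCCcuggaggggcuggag
mmu-miR-671-3p: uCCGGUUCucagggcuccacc
mmu-miR-5114: aCUGGAGAcggaagcugcaaga

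The 3 seeds differed from each other. In GRCm38.p6 the miR-671 arms lie at chr5:24592132-24592154 and chr5:24592171-24592191 and miR-5114 at chr19:44303171-44303192, all on the plus strand. A fragment of a longer host transcript and the microRNA precursor cannot be told apart in such a peak, and mature microRNAs are shorter than any peak of the list.

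Of 21900 protein-coding genes, 17.6% had at least 1 C2C12 peak and 4.57% at least 2. These shares are the background for the gene lists that follow, which include genes that C2C12 cells may not express. Transcript levels were not in the list, so their part in the shares was not tested. The share was above the background in 21 of 27 lists, and in 19 lists it was so both for 1 and for 2 peaks. For 2 of the 21, the neuron markers (20%, interval 3.62 to 62.4) and the Hox genes (20.5%, interval 10.8 to 35.5), the background lay within the interval. For 2 peaks, some lists counted as above lay close to the background of 4.57%. These were ribosomal proteins (4.82%), Hox genes (5.13%), cell cycle genes (5.17%) and RING-finger and F-box genes (5.24%). Intervals were not computed for the shares with 2 peaks. A gene can belong to several lists. Median gene length ran from 950 bp in olfactory receptors to 81591 bp in actin, adhesion and cytoskeletal linkers, against 17146 bp for all protein-coding genes. Gene lengths were not matched, and their part in the shares was not tested.

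The m6A machinery was itself marked. Of 8 genes of the writer complex, 6 (75%, interval 40.9 to 92.9) had a peak, and 13 of their 15 peaks lay in coding exons. Zc3h13, a scaffold of the complex in the nucleus, had 4 peaks of 199 to 310 bp. Rbm15b and Rbm15, the RNA-binding subunits, had 3 each, which covered 1680 and 1250 bp, and Wtap, the subunit that anchors the catalytic pair, had 3. The ubiquitin ligase Cbll1 and 1110037F02Rik, an older symbol of Virma, had 1 each. The catalytic pair, Mettl3 and Mettl14, had none. Of 14 readers and erasers, 7 had a peak. Among the readers, Ythdf1 had 3 peaks, Ythdf2 had 2 and Ythdf3 had 1, all in coding exons. Hnrnpa2b1, a nuclear RNA-binding protein, had 2. The erasers Fto and Alkbh5 had 1 coding exon peak each. Ythdc1, Ythdc2, Igf2bp1, Igf2bp2, Igf2bp3, Fmr1 and Rbmx had no peak.

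The markers of the cell type were marked in part. Of 14 myoblast markers, 6 (42.9%, interval 21.4 to 67.4) had a peak. Des, the muscle intermediate filament desmin, had 3 peaks, of 510, 269 and 302 bp. Six4, a homeodomain factor of the muscle lineage, had 2. Pax7, the factor of muscle stem cells, had a 3′UTR peak of 751 bp at 97.5% of the gene length. Cdh15, M-cadherin, had a 3′UTR peak of 531 bp, and Myod1, the myogenic factor that defines the line, a 5′UTR peak of 374 bp centred at 144 bp. Myog, Myf5, Mef2a, Mef2c, Mef2d, Ncam1, Itga7 and Met had no peak. Of 32 sarcomere genes only the tropomyosins had peaks (9.38%, interval 3.24 to 24.2), with 3 in Tpm1 and 1 each in Tpm2 and Tpm3. Tropomyosin genes also give nonmuscle isoforms. No peak was found in 6 macrophage, 5 endothelial or 5 hepatocyte markers, with intervals that reached 39.0%, 43.4% and 43.4%. The background of 17.6% lay within the interval of each of these short lists, and within that of the sarcomere genes. Of 5 neuron markers, Tubb3, a neuronal tubulin, had 1 peak. Since the list gives peaks and not levels, these counts do not establish the cell type.

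Notch signalling, in which a ligand on the neighbouring cell leads to cleavage of the receptor and its entry into the nucleus with RBPJ and MAML1, was marked near the 3′ ends of its genes. Of 11 core genes, 7 (63.6%, interval 35.4 to 84.8) had a peak, and 12 of their 13 peaks lay in the final 10% of the gene length, against 33.0% of the peaks of all protein-coding genes. The 7 genes were 22010 to 136830 bp long, and in the 3 length classes that hold them the share was 32.3 to 45.5%. Notch2 alone gave 5 of the 13 peaks. The study had already reported m6A on Jag1, Notch2, Rbpj and Maml1 from its C2C12 sequencing. The list was written with this known, so its share is not separate evidence for them. Among ligands, Jag1 had a coding exon peak of 261 bp at 95.1% of the gene length and Jag2 a coding exon peak of 539 bp at 92.7%. Among receptors, Notch2 had 5 peaks, of 200 to 511 bp, from 97.1 to 99.3%. Notch1 had 2, at 94.0 and 98.3%, and Notch3 had 1, at 96.1%. The nuclear factor Rbpj had a 3′UTR peak of 290 bp at 96.3%. The coactivator Maml1 had 2 coding exon peaks, at 68.5 and 91.7%. Dll1, Dll3, Dll4 and Notch4 had no peak.

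Of 42 modulators and targets of Notch, 22 (52.4%) had a peak, and 20 of their 37 peaks lay in the final 10%. Ep300, a coactivator, had 5 peaks, of which 4 were in coding exons. Poglut1, which glycosylates the receptor, had 2 in the 3′UTR. Among the Hes and Hey target genes, Hes1 and Hes6 had a coding exon peak of 201 and 377 bp, Heyl a 3′UTR peak of 218 bp and Hes2 an upstream peak of 204 bp. Hey1, Hey2, Hes3 and Hes5 had no peak, nor did the regulators Numb, Lfng and Adam10.

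Other signalling pathways were also marked in many of their genes. Of 44 Wnt and Hippo genes, 23 (52.3%) had a peak. The Wnt receptor Fzd1 had 5 peaks, all but 1 of them in coding exons, which covered 2017 bp, and Fzd7 had 3. Bcl9l, a coactivator of beta-catenin, had 3 coding exon peaks that covered 2485 bp, and Amotl2, an angiomotin that binds YAP, had 3. Of 45 TGF-beta and BMP genes, 26 (57.8%) had a peak, and 20 of their 38 peaks lay in 3′UTRs (52.6%, against 26.0% for all protein-coding genes). Ski, a repressor of SMADs, had 4 peaks, 3 of them in the 3′UTR. The ligands Inhba and Tgfb3 and the BMP antagonist Grem1 had 2 each.

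Of 40 genes of insulin, mTOR and FoxO signalling, 17 (42.5%) had a peak. Irs1, the insulin receptor substrate, had 5, with 1 in the 5′UTR at 540 bp, 3 in coding exons and, far downstream, 1 in the 3′UTR at 53920 bp. Igfbp5, an IGF-binding protein of differentiating myoblasts, had 3 3′UTR peaks that covered 2618 bp. Pik3r1, the regulatory subunit of PI3-kinase, and Igf1r, the IGF receptor, had 3 each.

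Immediate-early and growth response genes were marked often and by long peaks. Of 37, 27 (73.0%, interval 57.0 to 84.6) had a peak, and none of the 36 peaks lay in an intron. The median peak length was 413 bp, against 285 bp for all protein-coding genes. The median gene length was 5297 bp, against 17146 bp. Jun, a subunit of AP-1, had a 5′UTR peak of 1346 bp and a 3′UTR peak of 700 bp. Klf4, a zinc finger factor, had 3 peaks that covered 1069 bp. The matricellular gene Cyr61 had 3, in the 5′UTR at 29 bp, in a coding exon and in the 3′UTR, and the growth response factor Egr2 had 2 that covered 1207 bp. Peaks over 1000 bp were also found in Junb, Ier5 and Ier2, with 1715, 1096 and 1095 bp, noted after their values were seen.

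Regulators of chromatin were marked mainly in coding exons. Of 82, 45 (54.9%) had a peak, and 77.5% of their 89 peaks lay in coding exons, against 54.1% for all protein-coding genes. The median gene length was 74436 bp in this list, against 17146 bp for all protein-coding genes. Besides Kmt2d, Chd9 and Ep300, the acetyltransferase Crebbp had 4 coding exon peaks that covered 1589 bp. Zinc finger genes followed the same division. Of 465, 139 (29.9%, interval 25.9 to 34.2) had a peak, and 72.6% of their 201 peaks lay in coding exons. Zfp646 had 5, Zbtb10 had 4, and Zfp609 had 3, all in coding exons, and Zfp865 had 3. Many of these genes have close paralogues, between which the authors' mapping could divide or misplace reads. Of 39 Hox genes, 8 (20.5%) had a peak. Among these regulators of body patterning, Hoxc9 and Hoxc11 had 2 each. Hoxc10 and Hoxc4 had 1 each.

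Genes of cell shape and matrix often carried several peaks. Of 51 actin, adhesion and cytoskeletal linker genes, 35 (68.6%, interval 55.0 to 79.7) had a peak and 21 (41.2%) had at least 2. Of their 96 peaks, 34 lay in introns, mostly those of Ahnak and Myh9. The median gene length was 81591 bp in this list, against 17146 bp for all protein-coding genes. Actb, cytoplasmic beta-actin, had 4 peaks that covered 1524 bp. Of 53 extracellular matrix genes, 32 (60.4%) had a peak, and the median gene length was 49532 bp. Mmp14 had 3 peaks that covered 1387 bp, Fbln2, a fibulin, had 3 and Lox, the enzyme that crosslinks collagen, had 3.

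In RNA processing, protein turnover and the cell cycle, 26.2 to 38.0% of the genes had a peak. Of 50 splicing and RNA-binding genes, 19 (38.0%) had a peak, with 3 in Hnrnpm and in Son, a speckle protein, and 2 in Snrnp70, a U1 protein, and Srsf4, a splicing factor. Of 56 ubiquitin-specific protease genes by symbol, 21 (37.5%) had a peak, with 3 in Usp36 and 2 each in Usp47, Usp31 and Usp48. Of 229 RING-finger and F-box genes, 60 (26.2%) had one, with 3 in Rnf19a, all in coding exons, 3 in Fbxl13, all in introns, and 2 in Fbxo46 and Rnf26. Of 58 cell cycle genes, 16 (27.6%, interval 17.8 to 40.2) had a peak. Cdkn2c, a CDK inhibitor, Incenp, of the chromosomal passenger complex, and E2f3, a factor of S-phase entry, had 2 each, and Birc5, survivin, had 1.

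Ribosomal protein and respiratory chain genes stood apart by the place of their peaks. Of 83 ribosomal protein genes, 28 (33.7%) had a peak, but 20 of their 32 peaks lay in introns, and 13.3% of the genes had an exon peak, against 15.9% of all protein-coding genes. Their median peak length was 214.5 bp. Rpl8, Rpl23a and Rps10 had 2 peaks each. Of 92 respiratory chain genes, 28 (30.4%) had a peak and 13.0% an exon peak, with 17 of 31 peaks in introns and a median length of 211 bp. Ndufb7, of complex I, and the ATP synthase genes Atp5g3 and Atp5d had 2 each, and Cox7a2l, a factor of supercomplexes, had a 3′UTR peak of 648 bp. These families have many processed pseudogenes, so the assignment of reads to them is uncertain.

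Olfactory receptors, which belong to another tissue, had few peaks. Of 1110 olfactory receptor genes, 3 (0.27%) had a peak. They were Olfr1033, Olfr613 and Olfr810, and the last was centred -4805 bp from the TSS. Solute carriers lay near the background, with 67 of 389 (17.2%, interval 13.8 to 21.3). Slc38a10, Slc20a2 and Slc35b4 had 3 peaks each and Slc39a7, a zinc transporter, had 2.

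**Figure D5:**
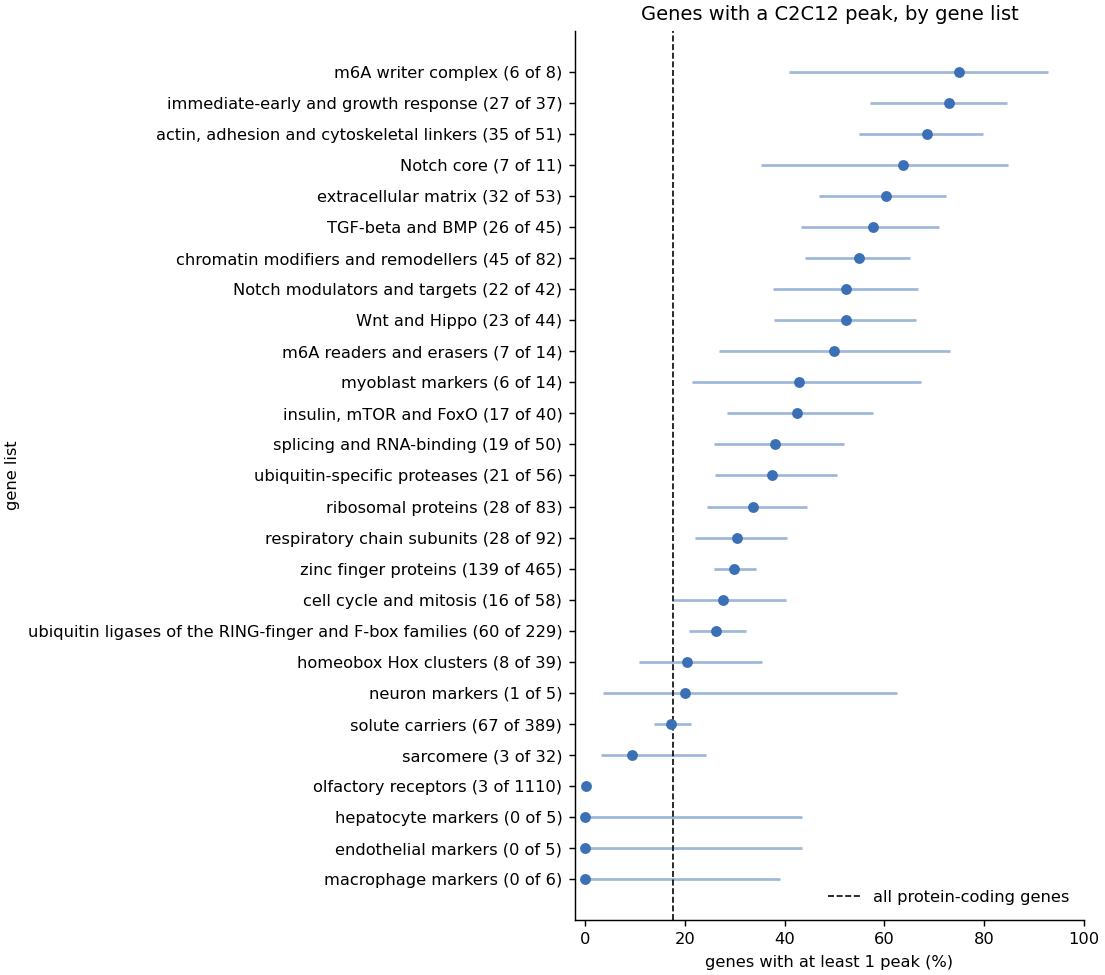
Share of genes with at least 1 C2C12 peak (horizontal axis, %) for 27 gene lists (vertical axis, with the number of genes with a peak of all genes in the list). Points show the share, bars the 95% Wilson interval, and the dashed line the 17.6% of all protein-coding genes. The writer complex (75%) and immediate-early genes (73.0%) are highest, and olfactory receptors (0.27%) and the macrophage, endothelial and hepatocyte markers (0%) lowest. The bars of the macrophage, endothelial and hepatocyte markers cross the dashed line.

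The muscle table lists differential peaks between METTL3 knockout and control muscle and was used only for its gene names and regions. A gene whose muscle peak did not differ may be absent from that table. The shares below are therefore not shares of all genes marked in muscle. Of 3865 protein-coding genes in the C2C12 list, 1602 were in the muscle table, which is 41.4% (interval 39.9 to 43.0) of the C2C12 genes and 43.2% of the 3705 muscle genes, while 16.9% of all protein-coding genes were in the muscle table. The share was 37.8% for genes with 1 C2C12 peak, 50% for genes with 2 and 57.2% (interval 51.3 to 62.9) for genes with 3 or more. By category it was 45.7% for genes with a coding exon peak, 44.2% with a 3′UTR peak, 44.1% with a 5′UTR peak and 26.1% (interval 22.3 to 30.2) with an intron peak. Of all shared genes, 52.2% had a 3′UTR peak in muscle and 45.1% a coding peak. Among shared genes with a C2C12 3′UTR peak, 71.0% had a 3′UTR peak in muscle and 26.3% a coding peak. Among those with a C2C12 coding exon peak, 56.8% had a coding peak in muscle and 42.7% a 3′UTR peak. The tables came from separate calls with positions on unlike builds, so genes and not positions were compared. Expression and gene length were not matched between the tables, and their part in the overlap was not tested.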

How the data were processed

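m6A MeRIP-Seq of C2C12 cells (2 IP libraries, 1 input) was analysed from the peak list that the authors deposited. TopHat, MACS2 and mm10 are named in the submitters' processing notes. Settings, and how the libraries were combined, are not given in the sources used here. The list holds positions, categories and distances. For muscle, the authors deposited a ratio per peak, its IP signal over that of the input (fold enrichment), used for 1 alternative, and columns of their own comparison (log2 fold and FDR), which were not used.

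Peak length is end minus start. Genes were matched to RefSeq GRCm38 by transcript (3930 genes) or symbol (37), and 3 were unmatched. Of 5290 peaks in protein-coding genes, 5169 could be placed along the gene. Shares carry 95% Wilson intervals. No test between conditions was possible, and depth is unknown. The merging of neighbouring peaks within genes and the placing of peaks along genes were tested on simulated data.

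Members and lists were chosen with earlier results of these data known. Genes were named by fixed rules: core Notch genes, genes with 6 or more peaks, the 5 with the longest peak and the 5 with the most covered bases, the longest peak per category, the 3 farthest peaks, and the 4 members with most peaks in each list. Further members of short lists (writers, readers, erasers, myoblast markers, Notch targets) were named after their values were seen. A few genes that these rules name are not reported here. Python 3.11.15, pandas 2.3.3, numpy 2.4.6, scipy 1.17.1 and matplotlib 3.10.9 were used.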

Additional observations from a re-analysis of the deposited data

How the results depend on the processing

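Counted by bases covered, the share of coding exons was 55.4%, of introns 11.4% and of 5′UTRs 5.16%. With the longest peak of each gene alone, 3′UTRs made up 28.1% and introns 9.82%, and the median length was 304 bp, against 285 bp for all peaks. The median was 304 bp for coding exon, 290 bp for 3′UTR, 232 bp for intron and 239 bp for 5′UTR peaks alone. When neighbours under 1000 bp apart were merged, genes with 2 or more peaks fell from 1023 to 587. The median distance from the TSS, 13712 bp, corresponded to 77.7% of the gene length. The share of protein-coding genes with a peak was 20.4% among genes longer than the median and 15.9% with exon peaks only. The share found in the muscle table was 52.0% for genes with 2 or more peaks, and 29.2% against muscle peaks whose fold enrichment reached the median. With exon peaks only, 24 of 27 lists kept a share within their 95% interval, and the exceptions were ribosomal proteins (13.3%), respiratory chain subunits (13.0%) and olfactory receptors (0.0901%). No paired analysis was possible because the libraries had been combined into 1 list with no values per library. For the same reason, leaving out each IP library was not run, and categories were not recomputed, since transcript models of the list's build were not used here.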
